A study of Mus musculus with 4 samples.

Results

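The cysteine cathepsins are the papain-like proteases of the lysosome. The 10 members are the genes Ctsb, Ctsc, Ctsf, Ctsh, Ctsk, Ctsl, Ctso, Ctss, Ctsw and Ctsz. They were chosen by gene symbol and are represented by 11 of the 34535 transcripts and 10 of the 24358 gene symbols of the deposited table. All 10 had at least 1 transcript tested by the authors. RNA sequencing compared CD301b macrophages, a wound macrophage subset named for the C-type lectin CD301b, with F4/80-negative immune cells, which lack the macrophage surface protein F4/80. Both populations were sorted by flow cytometry from the dermis of wound beds on day 5. The mice were 7-week-old C57/Bl6 males with no genetic change named in the labels, and each population had 2 libraries. The table gives 1 pooled value per transcript and population, in FPKM (fragments scaled to transcript length in kilobases and to the mapped fragments of the library). No error between libraries can therefore be given for any level, and the depth of the libraries is unknown. The labels do not say whether the libraries came from separate animals. CD301b-negative macrophages were not analysed here. In the macrophages 7 of 7 marker genes of that cell type passed the test as higher, among them C1qb (2409 against 724 FPKM) and C1qa (1530 against 425 FPKM). The F4/80-negative cells still carried Adgre1, the gene of F4/80, at 151 FPKM, below the 557 FPKM of the macrophages. Mgl2, the gene of CD301b itself, went against the label: it was 49.2 FPKM in the population labelled CD301b macrophages and 103 FPKM in F4/80-negative cells, and passed the test as lower. The populations are called by their labels. Pairs of values are given throughout as CD301b macrophages against F4/80-negative cells.

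Cysteine cathepsins are made as inactive proenzymes, tagged with mannose 6-phosphate and carried to the lysosome, where the propeptide is removed at acid pH. In macrophages and dendritic cells they break down engulfed matrix, dead cells and pathogens, and they trim the invariant chain that guards the peptide groove of MHC class II. Stefins in the cytosol and cystatins outside the cell hold stray cathepsins in check, and cathepsin K is known above all as the collagenase of the osteoclast.

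Ctsk went against the other members that passed the test. Of the 10 members, 5 were higher in CD301b macrophages (Ctsb, Ctsc, Ctsl, Ctso and Ctsh), Ctsk alone was lower, and Ctss, Ctsz, Ctsf and Ctsw were not past the threshold. The threshold was 0.05 after the p-values that Cuffdiff gave, taken from the authors' deposited table, were adjusted over all tested transcripts (Benjamini-Hochberg). Among the 13039 genes tested, 11.0% were higher and 6.20% were lower by the same rule. The counts of the other gene lists are to be read beside these shares as well. Under the alternative rules tried these shares were 12.1% and 6.70% (genes at 1 FPKM or more), 6.50% and 3.54% (adjusted p of 0.01), 10.4% and 5.82% (most abundant transcript), 9.69% and 5.71% (1.5-fold needed) and 11.0% and 6.24% (scaled to the median gene), and the members' counts did not change. Among the 8319 tested genes that reached 5 FPKM in a population, as 9 of the members did, 14.4% were higher and 6.68% were lower. The members' median log2 fold was 0.57 on the log2(FPKM + 1) scale, beside 0.05 over all tested genes. The populations are bulk samples, so fewer cells of a type and less RNA per cell cannot be told apart in any of these differences.

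**Figure D1:**
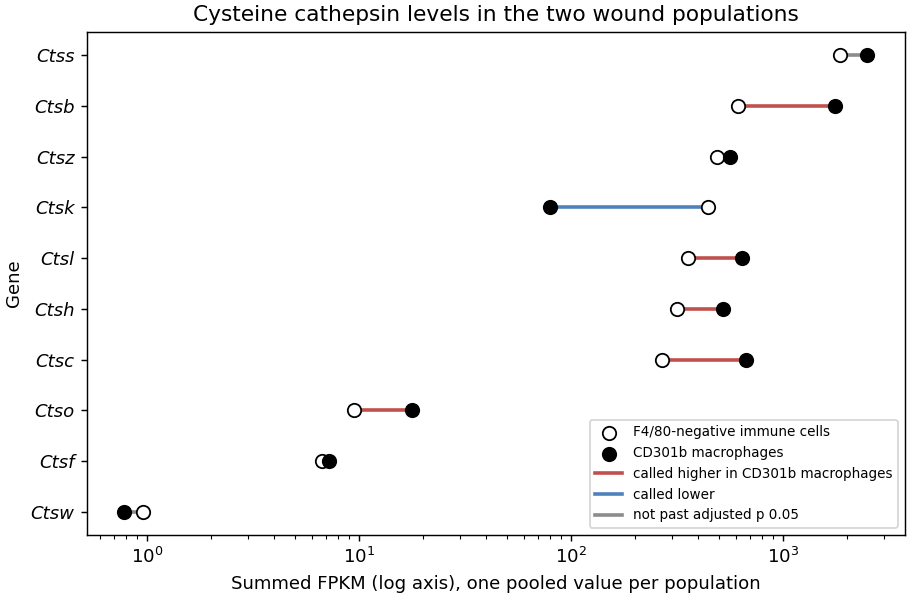
Summed FPKM of each cysteine cathepsin (log horizontal axis) in F4/80-negative immune cells (open circles) and CD301b macrophages (filled circles), 1 pooled value per population without error. Ctsk is the member with the long line to the left, from 443 to 79.8 FPKM, while Ctsb, Ctsc, Ctsl, Ctsh and Ctso move to the right.

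The members formed an abundant and a scarce class in both populations. Ctss, an endopeptidase of antigen-presenting cells that stays active near neutral pH, had the highest level of the family, at 2509 against 1871 FPKM, and ranked 15th and 28th among all genes. In CD301b macrophages it was followed by Ctsb (1765 FPKM), Ctsc (674 FPKM), Ctsl (643 FPKM), Ctsz (564 FPKM), Ctsh (521 FPKM) and, well below, Ctsk (79.8 FPKM). In F4/80-negative cells the order after Ctss was Ctsb (612 FPKM), Ctsz (488 FPKM), Ctsk (443 FPKM), Ctsl (357 FPKM), Ctsh (319 FPKM) and Ctsc (270 FPKM). Ctsk thus stood above Ctsl, Ctsh and Ctsc in F4/80-negative cells and below all of them in CD301b macrophages, and Ctsc stood below Ctsz in one population and above it in the other. Ctso (17.8 against 9.46 FPKM), Ctsf (7.19 against 6.71 FPKM) and Ctsw (0.783 against 0.959 FPKM) were the scarce members in both. Without values per library it cannot be tested which neighbours in these orders differ.

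Ctsk encodes cathepsin K, which cleaves the triple helix of collagen. Its level was 79.8 against 443 FPKM, 5.56-fold lower in the macrophages, and its rank among all genes went from 202 in F4/80-negative cells to 999 in the macrophages. Its log2 fold was -2.46, and 54 of the 13039 tested genes had a lower one. The adjusted p of Ctsk was 0.000999 (Cuffdiff, from the authors' deposited table), the smallest value that table can give. The passing genes nearest to Ctsk in log2 fold, among the 480 other passing genes at 50 FPKM or more in a population, were AA467197, Ccr7, Cd209a, Gm11974 and Mmp12. The log2 folds of these 5 lay between -2.78 (Ccr7) and -1.89 (Mmp12). With 2 populations this likeness is 1 ratio per gene and no more.

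**Figure D2:**
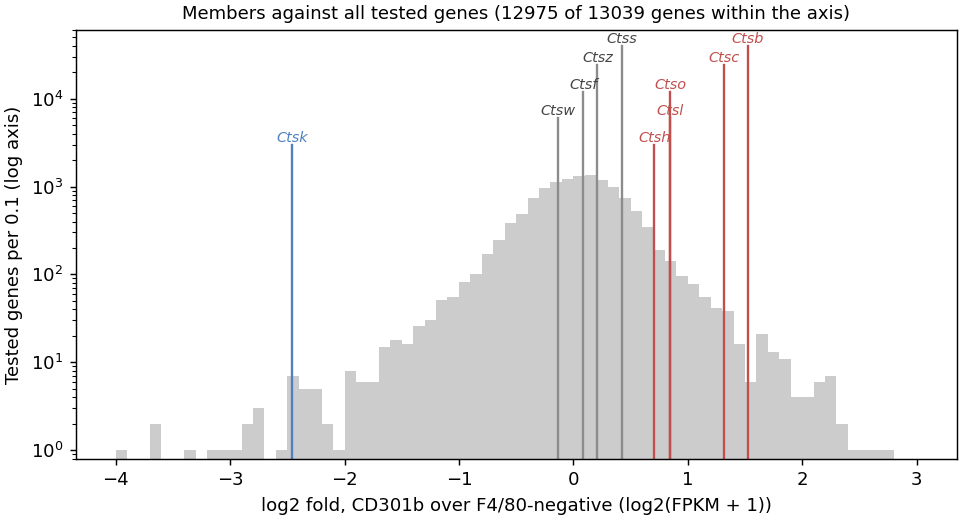
Log2 fold of the 10 members (vertical lines) on the distribution of log2 fold over tested genes (grey bars, log vertical axis), of which 12975 of 13039 lie within the axis. Ctsk stands at -2.46 in the thin left tail, and Ctsb (1.53) and Ctsc (1.32) stand in the right tail.

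Fibroblasts, which a sort for immune cells should leave out, also express Ctsk, and genes that mark them had high levels in both populations. Col3a1 was 1401 against 2356 FPKM and Col1a1 was 1293 against 1676 FPKM, neither past the threshold. Of 8 fibroblast markers, 2 were lower in CD301b macrophages (Postn and Lum) and none was higher, and the FPKM summed over the list was 4556 against 6743, 1.48-fold lower in the macrophages. The fibroblast marker with the largest difference, Postn, was 1.74-fold lower. Of 8 dendritic cell markers, 7 passed as lower, from Xcr1 at 2.27-fold (0.278 against 0.631 FPKM) to Ccr7 at 7.56-fold (8.39 against 63.4 FPKM). Batf3 was 6.43 against 9.71 FPKM and not past the threshold. The FPKM summed over the 8 dendritic cell markers was 67.1 against 250. Of 8 osteoclast markers, 5 were lower, Ctsk itself among them, and none was higher. The other lower ones were Oscar (0.149 against 2.24 FPKM), Ocstamp (1.70 against 9.05 FPKM), Acp5 (72.7 against 226 FPKM) and Atp6v0d2 (13.2 against 29.2 FPKM). Nfatc1 (23.9 against 30.4 FPKM) was not past the threshold. Dcstamp (1.90 against 15.1 FPKM) was 7.94-fold lower in summed FPKM. Its level is divided over 5 transcripts, and none of the 4 tested passed. Calcr, the calcitonin receptor that defines mature osteoclasts, was at 0.0104 against 0.0493 FPKM and was not tested. The part of these cells in the Ctsk difference was not tested.

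Ctss is the direct neighbour of Ctsk and went the other way without passing the test. Ctsk (NCBI gene 13038) lies on the plus strand of chromosome 3 from 95499210 to 95509387 in GRCm38, and Ctss (NCBI gene 13040) follows on the same strand from 95526786 to 95556405, with 17.4 kb between them. Ctss was 1.34-fold higher in CD301b macrophages, which was not past the threshold (adjusted p = 0.209, Cuffdiff, from the authors' deposited table). On the other side of Ctsk, the transcription factor gene Arnt ends 1.97 kb before it and was 19.9 against 17.1 FPKM, also not past the threshold. The window of 250 kb around Ctsk was chosen after the values were seen. Of the 14 other tested genes in it, 2 were higher, none was lower and 12 were counted as neither. Over all tested genes 11.0% were higher and 6.20% were lower, so these counts lie near those shares. The 2 higher were Ecm1, which encodes extracellular matrix protein 1 (238 against 141 FPKM), and Fam63a (41.7 against 29.3 FPKM). Among those counted as neither, Setdb1 (16.0 against 11.8 FPKM) had 1 transcript past the threshold in each direction. The log2 folds of these 14 genes ran from -0.19 to 0.75 with a median of 0.27, and each was above the log2 fold of Ctsk.

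**Figure D3:**
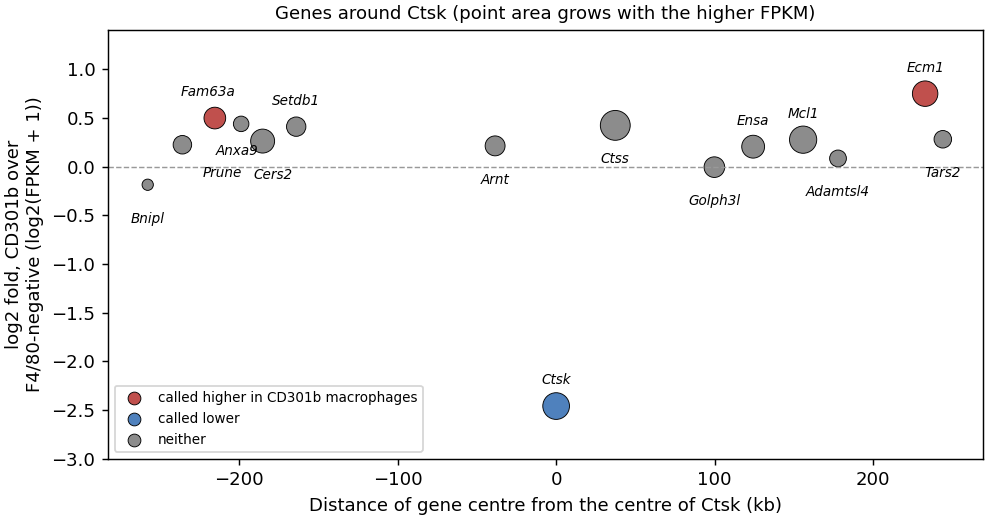
Log2 fold of Ctsk and the 14 other tested genes within 250 kb, by the distance of each gene's centre from that of Ctsk in kb, with point area growing with the higher FPKM. Ctsk sits alone at -2.46, and the others lie between -0.19 (Bnipl) and 0.75 (Ecm1).

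The start regions of these neighbours are shown because the genes lie side by side and had different calls. Each runs from 250 bases before to 50 bases after the outermost RefSeq gene start (GRCm38.p6), with capitals marking any of the 5 motifs searched.
Ctsk, chr3:95498960-95499259, plus strand: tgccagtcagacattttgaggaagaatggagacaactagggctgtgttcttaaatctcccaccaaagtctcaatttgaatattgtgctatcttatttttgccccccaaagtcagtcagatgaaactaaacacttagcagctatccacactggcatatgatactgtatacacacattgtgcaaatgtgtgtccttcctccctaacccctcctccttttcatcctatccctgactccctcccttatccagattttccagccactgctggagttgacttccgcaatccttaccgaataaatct
Ctss, chr3:95526536-95526835, plus strand: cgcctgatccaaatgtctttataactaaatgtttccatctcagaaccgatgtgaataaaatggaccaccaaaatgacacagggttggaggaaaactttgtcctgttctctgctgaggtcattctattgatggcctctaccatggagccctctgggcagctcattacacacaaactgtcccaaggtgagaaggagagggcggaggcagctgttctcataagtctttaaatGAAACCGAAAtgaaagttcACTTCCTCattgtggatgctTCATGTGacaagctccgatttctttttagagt
The motifs, chosen after these sequences had been read, were searched on both strands: CACGTG, the core bound by the lysosomal regulators Tfeb and Tfe3, TCATGTG, a box of the related factor Mitf, GAAA repeated after any 2 bases, a core of interferon-stimulated elements, TGANTCA, the AP-1 site, and GAGGAAGT, an Ets and PU.1 type site. The Ctsk window held none of the 5. The Ctss window held TCATGTG, the GAAA repeat and GAGGAAGT, the last on the opposite strand as ACTTCCTC. Of 32851 windows of the same length over all genes, 3.77% held TCATGTG, 3.44% held the GAAA repeat, 3.20% held GAGGAAGT, 7.15% held CACGTG and 7.81% held TGANTCA. A match describes letters only and does not show binding.

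Among the endopeptidases that act on the MHC class II invariant chain, Ctsl was higher and the others did not pass. Ctsl encodes cathepsin L, a general lysosomal endopeptidase (NCBI gene 13039, chromosome 13, minus strand, 64361890 to 64370772, with 8 exons). It was 643 against 357 FPKM, 1.80-fold higher, with an adjusted p of 0.00458 (Cuffdiff, from the authors' deposited table). Ctss, the main invariant chain protease of B cells and dendritic cells, was present as 2 transcripts. NM_021281 made up 96.5% of its FPKM in CD301b macrophages and 96.9% in F4/80-negative cells (2421 against 1812 FPKM), and NM_001267695 the remainder (87.9 against 58.7 FPKM). Neither transcript was past the threshold. The matching transcript models share 96.0% of their 50-base words, so the division between them rests on few reads. Ctsf, cathepsin F, was 7.19 against 6.71 FPKM, with a ratio of 1.07 (NCBI gene 56464, chromosome 19, plus strand, 4855165 to 4860918). The level of Ctss was 5.23 times that of Ctsl in F4/80-negative cells and 3.90 times in CD301b macrophages.

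The substrate of these enzymes went the other way from Ctsl. Cd74, which encodes the invariant chain, was 3746 against 5922 FPKM and lower in CD301b macrophages, with an adjusted p of 0.0175 (Cuffdiff, from the authors' deposited table) that would not pass at 0.01. H2-DMa (88.2 against 149 FPKM) and H2-DMb1 (100.1 against 197 FPKM), the subunits of the exchange factor that loads class II peptides, were lower as well. The class II transactivator Ciita was 7.52 against 9.69 FPKM and not past the threshold. These 3 lower genes of 4, beside 6.20% lower over all tested genes, gave the list a median log2 fold of -0.71. In FPKM, the level of Ctss was 0.670 times that of Cd74 in CD301b macrophages and 0.316 times in F4/80-negative cells.

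Of the 4 exopeptidases, which clip amino acids from the ends of peptides, 3 were higher. Ctsb encodes cathepsin B, a carboxydipeptidase and endopeptidase (NCBI gene 13030, chromosome 14, plus strand, 63122462 to 63145923, with 10 exons). It was 1765 against 612 FPKM, 2.88-fold higher, and stood at rank 33 among all genes against rank 138. Of the 13039 tested genes, 101 had a larger log2 fold than Ctsb. The passing genes nearest to Ctsb in log2 fold (1.53) were Glul, Tmem86a, C3ar1, Gna12 and Ccl12, from 1.45 to 1.61. Ctsc, the dipeptidyl peptidase that activates granule serine proteases (NCBI gene 13032, chromosome 7, plus strand, 88278024 to 88315861, with 7 exons), was 674 against 270 FPKM, 2.50-fold higher. Ctsh, an aminopeptidase (NCBI gene 13036, chromosome 9, plus strand, 90054267 to 90076095, with 12 exons), was 521 against 319 FPKM, 1.64-fold higher, with an adjusted p of 0.00624 (Cuffdiff, from the authors' deposited table). Ctsz, a carboxypeptidase also called cathepsin X (NCBI gene 64138, chromosome 2, minus strand, 174427494 to 174439039, with 6 exons), was 564 against 488 FPKM and not past the threshold (adjusted p = 0.516, Cuffdiff, from the authors' deposited table). Summed over the 4 genes, exopeptidase FPKM was 3525 against 1688, a ratio of 2.09. The sum of Ctss, Ctsl and Ctsk was 3231 against 2672, a ratio of 1.21. The first sum includes Ctsb, which is also an endopeptidase, and the second includes Ctsk, which was lower. The 2 ratios therefore do not separate the 2 kinds of enzyme.

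The less studied members were scarce. Ctso, cathepsin O (NCBI gene 229445, chromosome 3, plus strand, 81932601 to 81956725), was 17.8 against 9.46 FPKM, 1.88-fold higher, with an adjusted p of 0.000999 (Cuffdiff, from the authors' deposited table). Its log2 fold of 0.85 was close to the 0.84 of Ctsl, at a level far below it. Its start region, in the same form as those of Ctsk and Ctss, is shown because it shares letters with that of Ctss.
Ctso, chr3:81932351-81932650, plus strand: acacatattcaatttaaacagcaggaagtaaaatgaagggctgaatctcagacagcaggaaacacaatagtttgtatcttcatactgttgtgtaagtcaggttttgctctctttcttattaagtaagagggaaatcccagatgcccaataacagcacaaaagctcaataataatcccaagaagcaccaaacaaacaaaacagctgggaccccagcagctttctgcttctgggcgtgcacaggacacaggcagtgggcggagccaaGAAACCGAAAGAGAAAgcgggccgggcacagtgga
The letters GAAACCGAAA, a match to the GAAA repeat, were found in both Ctso and Ctss, and Ctso passed the test while Ctss did not. Ctso held a further match that overlaps the first. Ctsf held CACGTG and Ctsz held none of the 5 motifs. The RefSeq windows of Ctsc and Ctsl are set at starts 61 and 252 bases inside the gene and are not compared here.

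Ctsw, cathepsin W, is known from natural killer and cytotoxic T cells (NCBI gene 13041, chromosome 19, minus strand, 5465043 to 5468628). It stayed under 1 FPKM in both populations (0.783 against 0.959 FPKM) and did not pass the test. Of the 9 natural killer and T cell markers measured, 4 were also under 1 FPKM in both populations. They were Cd3e (0.399 against 0.415 FPKM), Ncr1 (0.406 against 0.313 FPKM), Prf1 (0.465 against 0.367 FPKM) and Cd8a (0.186 against 0.214 FPKM). Nkg7 (2.58 against 2.34 FPKM), Gzma (2.14 against 2.53 FPKM), Cd3g (1.10 against 1.49 FPKM) and Gzmb (1.01 against 1.48 FPKM) were above 1 FPKM in both. Klrd1, the most abundant, was 4.18 against 37.1 FPKM and the only marker of the list to pass the test, as lower. Of the 9 placental cathepsin genes of chromosome 13, 8 were listed at 0 FPKM in both populations and Cts8 was 0.0161 against 0.0269 FPKM.

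Within the family's transcript pool, Ctsb and Ctsc held larger shares in CD301b macrophages, and Ctsk, Ctss and Ctsz held smaller ones. Summed over the 10 members, FPKM was 6782 in CD301b macrophages and 4377 in F4/80-negative cells, a ratio of 1.55. The sum made up 1.23% and 0.841% of all FPKM. Without Ctsk the ratio was 1.70. Ctsk held 10.1% of the pool in F4/80-negative cells and 1.18% in CD301b macrophages, and Ctsb held 14.0% and 26.0%. Ctsc went from 6.16% to 9.94%, Ctss from 42.7% to 37.0% and Ctsz from 11.1% to 8.32%, although the FPKM of Ctss and of Ctsz was not lower in CD301b macrophages. Ctsl (8.17% and 9.48%) and Ctsh (7.28% and 7.69%) held similar shares in both. In F4/80-negative cells Ctsb stood at 1.38 times Ctsk, and in CD301b macrophages at 22.1 times. No test was possible on these shares.

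**Figure D4:**
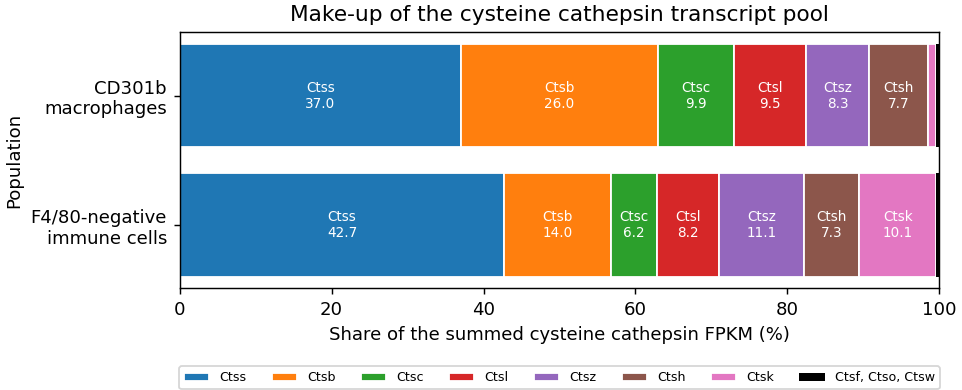
Share of the summed cysteine cathepsin FPKM held by each member in each population, in percent, from 1 pooled value per population. The Ctsk segment is 10.1% in F4/80-negative cells and 1.18% in CD301b macrophages, while the Ctsb segment is 14.0% and 26.0%.

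Proteases of the same compartment from other families were higher together with Ctsb. Ctsd, the aspartic cathepsin D, was 2876 against 1282 FPKM (2.24-fold), and Ctsa, the serine carboxypeptidase also called protective protein, was 265 against 148 FPKM (1.79-fold). The call of Ctsa came from its main transcript (260 against 143 FPKM), and its minor transcript was 4.90 against 5.04 FPKM. Ctse (2.49 against 3.28 FPKM) was not past the threshold, and Ctsg, the granule protease cathepsin G, was 0.122 against 0.189 FPKM and not tested. Lgmn, legumain, which cuts several cathepsin proforms to their 2-chain form, was 1791 against 771 FPKM and 2.32-fold higher. Ctsb had a larger ratio than each of these.

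No tested inhibitor of the cysteine cathepsins was higher. Cst3, the secreted cystatin C, was 1087 against 1020 FPKM, and Cstb, the cytosolic stefin B, was 523 against 508 FPKM, neither past the threshold. Of 11 tested stefins and cystatins, 6 were lower in CD301b macrophages and none was higher, with a median log2 fold of -0.83. The shares over all tested genes were 6.20% lower and 11.0% higher. Cst7, cystatin F, which acts inside the lysosome on cathepsins including cathepsin C, was 2.97 against 8.92 FPKM, opposite in direction to Ctsc. The stefin A genes Stfa3 (23.2 against 70.1 FPKM), BC100530 (27.5 against 83.2 FPKM), Stfa1 (9.24 against 25.6 FPKM) and Gm5483 (47.8 against 85.7 FPKM) were lower too, with the reservation that they are close copies whose reads may be divided uncertainly. These stefin A genes are known from neutrophils. Of 4 tested neutrophil markers, S100a8 (938 against 1725 FPKM), S100a9 (1092 against 2025 FPKM) and Csf3r (68.1 against 71.3 FPKM, called through 1 of its 3 transcripts) were lower, and Cxcr2 was 27.3 against 25.7 FPKM and not past the threshold. Mpo (0.194 against 0.141 FPKM) and Elane (0 FPKM in both) were not tested, and the summed FPKM of the list was 2125 against 3847. The part of neutrophil RNA in this was not tested. The family's summed FPKM was 4.21 times that of Cst3 and Cstb together in CD301b macrophages and 2.86 times in F4/80-negative cells.

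Of 12 genes that sort cathepsins to the lysosome, 2 were higher and none was lower, a count near the shares over all tested genes given above, with a median log2 fold of 0.24. Sort1, sortilin, was 7.86 against 5.09 FPKM. Gga3, an adaptor of the trans-Golgi, was 14.5 against 12.3 FPKM, a call that came from 1 of its 2 transcripts (9.23 against 4.77 FPKM) while the other went the opposite way without passing. The mannose 6-phosphate receptors M6pr (176 against 150.4 FPKM) and Igf2r (14.5 against 16.2 FPKM) were not past the threshold. Of the 4 transcription factors of the Mitf and Tfeb family, which bind lysosomal gene promoters, Tfec was 21.2 against 9.55 FPKM and 2.22-fold higher. Tfe3 was 45.7 against 32.7 FPKM and counted as higher through a minor transcript (4.02 against 1.47 FPKM). Mitf (14.1 against 10.1 FPKM) and Tfeb (7.97 against 7.81 FPKM) were not past the threshold.

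**Figure D5:**
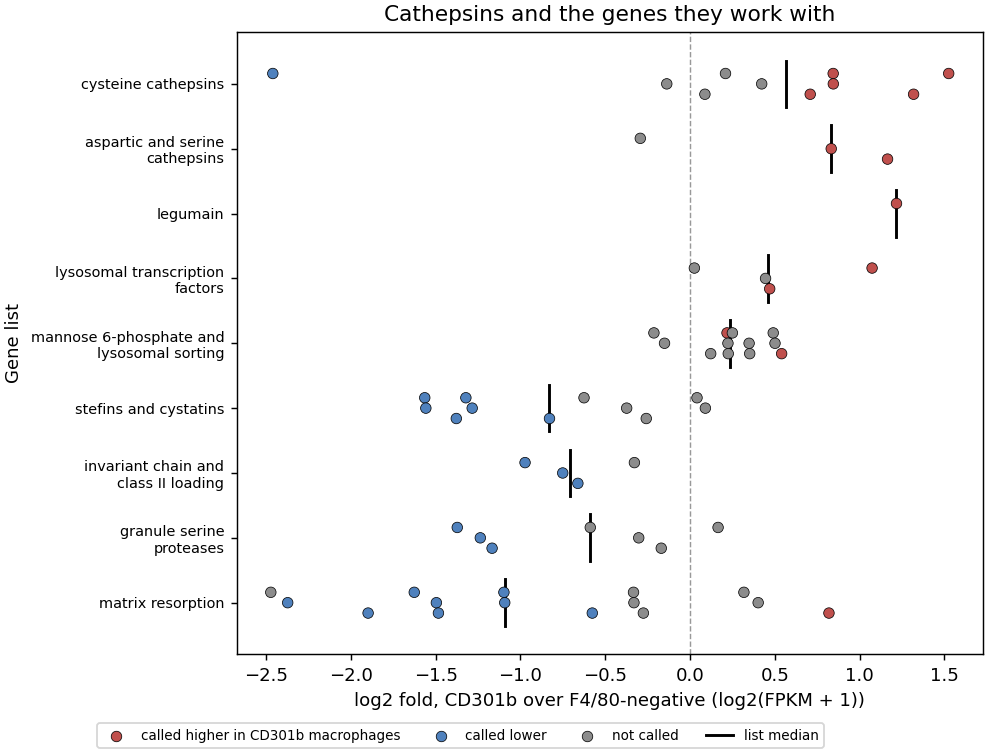
Log2 fold of the tested genes of each list (points, coloured by call) with the list median (black bar). The cysteine cathepsins, the other cathepsins and legumain lie right of 0 apart from Ctsk at -2.46, Ctse at -0.29 and Ctsw at -0.14. The stefins and the matrix resorption genes lie mostly left of 0, with medians of -0.83 and -1.09.

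Most genes of matrix resorption with a passing difference were lower, like Ctsk. Several of them are also among the osteoclast markers above. Of 15 tested, 8 were lower in CD301b macrophages and Tnfrsf11a, the receptor RANK, was the only one higher (15.2 against 8.18 FPKM). Their median log2 fold was -1.09. Over all tested genes, 6.20% were lower and 11.0% were higher. Slc9b2, a sodium and proton exchanger of osteoclasts, was 1.70 against 13.0 FPKM, and Ocstamp, an osteoclast fusion protein, was 1.70 against 9.05 FPKM. The acid phosphatase Acp5 (72.7 against 226 FPKM), the gelatinase Mmp9 (42.1 against 119 FPKM) and the proton pump subunit Atp6v0d2 (13.2 against 29.2 FPKM) were lower as well. Mmp14, a membrane collagenase, was 211 against 256 FPKM and not past the threshold, nor was Nfatc1, the osteoclast regulator of Ctsk, at 23.9 against 30.4 FPKM. Ctsk had the highest level of all these genes in F4/80-negative cells, 1.96 times that of Acp5, and was 1.10 times Acp5 in CD301b macrophages.

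Of the granule serine proteases, several of which are activated by cathepsin C, only mast cell proteases passed the test. Among 7 tested, the mast cell proteases Mcpt4 (5.93 against 16.9 FPKM), Cma1 (6.01 against 15.5 FPKM) and Tpsb2 (2.94 against 7.85 FPKM) were lower and none was higher. Of 6 mast cell markers, 5 were lower, with a summed FPKM of 19.7 against 56.2, but these same proteases are part of that list. Its further genes were Kit (1.06 against 5.33 FPKM) and Cpa3 (3.39 against 9.51 FPKM), both lower, and Fcer1a (0.384 against 1.10 FPKM), not past the threshold. The neutrophil protease Elane was listed at 0 FPKM in both populations, and Prtn3 (1.13 against 0.899 FPKM), Gzma (2.14 against 2.53 FPKM), Gzmb (1.01 against 1.48 FPKM) and Tpsab1 (0.0896 against 0.637 FPKM) were not past the threshold.

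Shared sequence touched 1 member. Of the 50-base words in the Ctsb transcript, 15.4% also lie in Fdft1, a sterol synthesis gene on the opposite strand that overlaps its end, and strand-specific counting is not stated. Fdft1 was 45.5 against 22.8 FPKM, far below Ctsb in both populations. No 50-base word was shared between any members, or between the other 9 members and any other gene of GENCODE M21.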

How the data were processed

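Libraries of mRNA (Illumina TruSeq, per the labels' protocols) came from 2 sorted populations with 2 libraries each. TopHat2 2.0.2, Cuffdiff 2.0.2 and the build mm9 appear in the submitters' processing notes. Of the deposited accessions, 97.1% were found in RefSeq GRCm38.p6, and 99.2% of their loci overlapped that gene, so RefSeq GRCm38 positions are printed. The authors deposited 1 FPKM per transcript and population; the sources used here do not say how libraries were combined. The deposited p-value of the authors was unadjusted, with a floor of 5e-05. It was Benjamini-Hochberg adjusted here over the 16921 transcripts with status OK, which gave the deposited calls in all 34535 transcripts.

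FPKM was summed over a symbol's transcripts. To count as higher or lower, a gene needed a transcript past 0.05 in that direction, none past it in the other, and a sum in the same direction. A gene's adjusted p is its smallest. Log2 folds use log2(FPKM + 1), where changes of low genes come out too small. No value per library is in the table, so no test across libraries was run, and the p-values may measure technical spread only. Named were all members, all genes of 4 short lists (other cathepsins, legumain, Tfeb family, class II), in other lists passing genes at 5 FPKM or more (at most 6) or the most abundant, and the 5 passing genes nearest to Ctsk and Ctsb in log2 fold; any other gene was named after its values were seen. The members and lists were chosen with earlier results of these data known. The calling code was checked on simulated data in which the changes and their small p-values were set in advance. That checks the code and not how calls behave under noise between libraries. Start regions are from RefSeq, overlaps and transcript words from GENCODE M21. Python 3.11.15, pandas 2.3.3 and numpy 2.4.6 were used.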

Additional observations from a re-analysis of the deposited data

How the results depend on the processing

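All 59 values of single members under the 6 alternatives kept their direction and their side of the threshold: a pseudocount of 0.1 FPKM, genes at 1 FPKM or more only (where Ctsw drops out), scaling each population to its median gene, an adjusted p of 0.01, the most abundant transcript only, and a required 1.5-fold difference. The scaling moved the median log2 fold of well measured genes by -0.10, moved members of low FPKM by less, and turned no member. The counts of 5 higher and 1 lower held under each. Much of this was fixed by the rules themselves. The pseudocount and the scaling left the p-values as they were, and the stricter p and the 1.5-fold rule could not alter a direction. The most abundant transcript differed from the sum only for Ctss. With genes at 1 FPKM or more only, the median log2 fold became 0.71 for the members, -1.06 for stefins and cystatins and -0.73 for granule serine proteases, by its construction of fewer genes. With a pseudocount of 0.1 FPKM the last was -1.35. The higher genes of the Tfeb family were 1 instead of 2 at an adjusted p of 0.01, with the most abundant transcript only and with 1.5-fold required, and 1 sorting gene in place of 2 was higher at 1.5-fold. At an adjusted p of 0.01, lower resorption genes were 6 in place of 8, lower stefins and cystatins 5 in place of 6, and lower class II genes 2 in place of 3 (Cd74 was lost). There, 848 genes in place of 1432 were higher over the whole table and 461 in place of 808 lower. Leaving out a library could not be done without values per library. No paired analysis was possible because the columns carry no replicate. Depth is unknown, which limits Ctsw and the other genes under 1 FPKM most.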
